A study of Mus musculus with 12 samples.

Results

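Perineuronal matrix genes were examined in sorted projection neurons of the early postnatal mouse cerebral cortex. The set held 9 genes, taken by symbol from a table of 56734: the lecticans Acan, Bcan, Ncan and Vcan, the link proteins Hapln1 and Hapln4, the tenascins Tnr and Tnc, and nephronectin (Npnt). All 9 were present in the table. There were 4 groups of 3 libraries, all wild type: layer 2 neurons at postnatal day 7 (P7), layer 3 neurons at P7, layer 2 neurons at postnatal day 3 (P3) and layer 3 neurons at P3. Neurons of all groups had been marked with the red fluorescent protein mCherry by timed electroporation in utero and collected by fluorescence-activated sorting, and each library came from a pool of 2 to 3 pups. Levels are transcripts per 1000000 (TPM), which are corrected for transcript length, so levels can be set side by side between genes. TPM keep no read depth, so the depth and the counting error of each library are unknown.

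In mature cortex, a lattice of hyaluronan surrounds some neurons and most synapses. Lecticans are chondroitin sulfate proteoglycans that bind hyaluronan at one end and tenascins at the other, and link proteins hold the lectican to the hyaluronan. Nets that enclose a cell body, rich in aggrecan and best known on parvalbumin interneurons, form in the weeks after birth, while a looser juvenile matrix rich in neurocan and versican precedes them. Nephronectin is a secreted matrix protein that binds the integrin α8β1 and is best known from kidney development.

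In these libraries Npnt was 10.7-fold higher at P7 than at P3 in layer 2 and 14.1-fold higher in layer 3, as folds of TPM + 1. Aggrecan (Acan) was listed at 0 in 9 of 12 libraries and reached at most 0.542 TPM. Bcan and Ncan made up most of the summed TPM of the 9 genes at P3, and neither was called between the ages. Layer differences were smaller, and all called ones were higher in layer 2. Each of these calls ended in several other settings, among them the loss of any of several single libraries. Calls were made with limma-trend on log2(TPM + 1), fitted to the 17606 genes with 1 TPM or more in 3 or more libraries, where the p adjusted by Benjamini and Hochberg over these genes was under 0.05. Of the 9 members 7 passed that filter, and Acan and Hapln4 did not. Values after ± are standard deviations of 3 libraries for TPM, and standard errors for log2 fold changes, which refer to log2(TPM + 1) and so understate the change of scarce transcripts. With 3 libraries on each side the smallest two-sided exact permutation p is 0.1, so calls rest on the moderated model, and their p-values measure the spread between pooled samples.

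**Figure D1:**
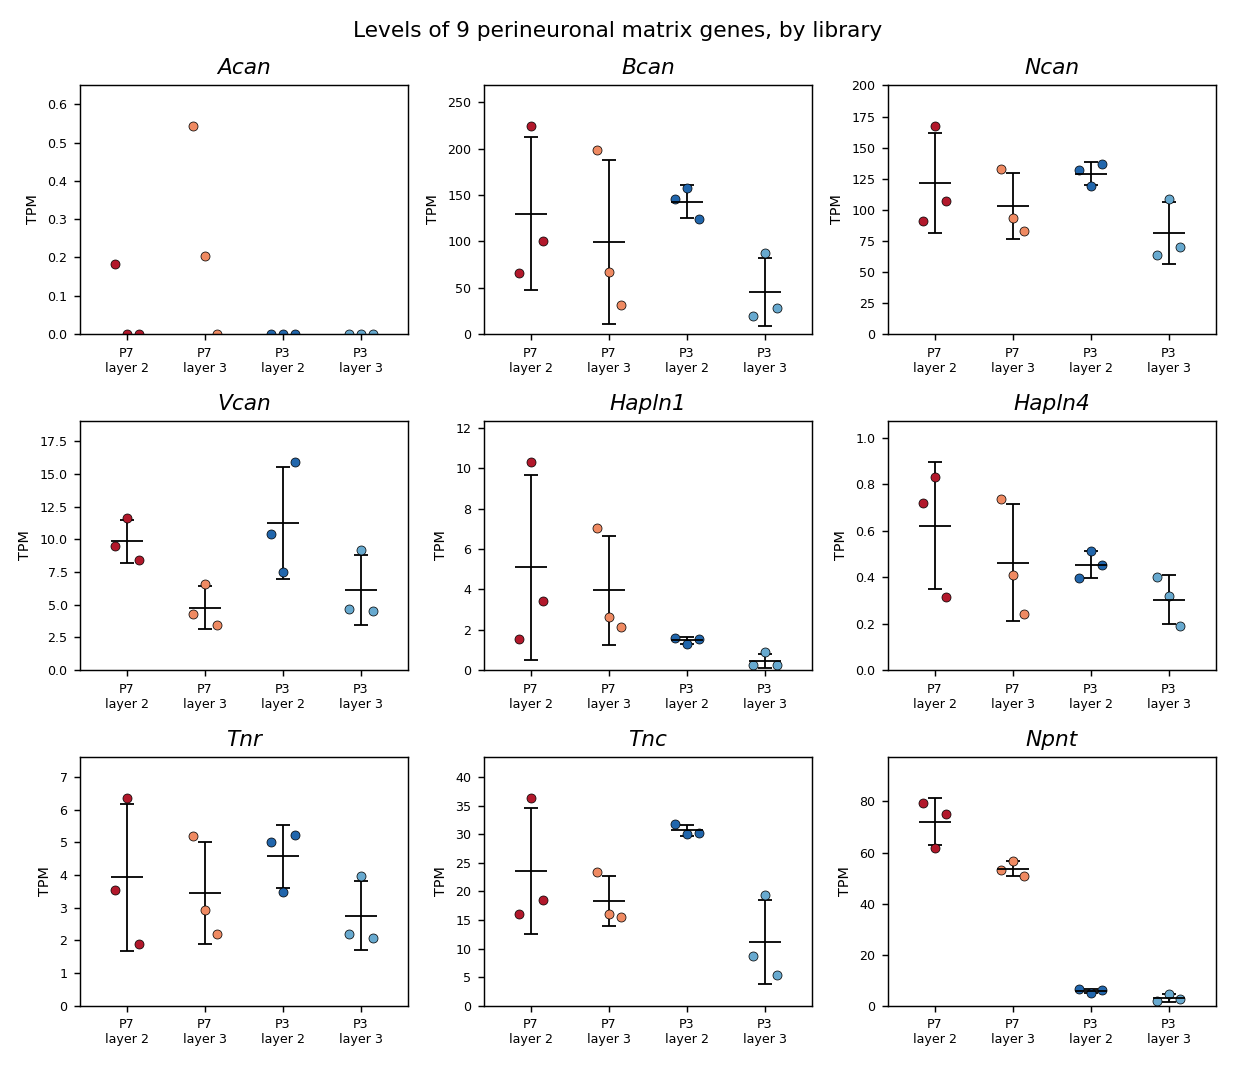
TPM (y axes, linear, each from 0) of the 9 genes in each library of the 4 groups (x axes). Points are libraries, and horizontal bars with whiskers are means ± SD of 3 libraries, left out for Acan because of its values at 0. The 6 P7 libraries of Npnt lie between 51.0 and 79.5 TPM, above all P3 libraries, which lie between 1.96 and 6.41 TPM.

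The libraries held transcripts of projection neurons and of other cells. The projection neuron markers Slc17a7, Cux1, Cux2, Neurod2 and Neurod6 were above 0 in every library. The 6 listed markers of these neurons summed to 507 to 636 TPM in P7 layer 2 and 770 to 881 TPM in P7 layer 3. At P3 the sums were 666 to 896 TPM in layer 2 and 897 to 1110 TPM in layer 3. The 8 microglia markers summed to 492 to 2500 TPM over the 12 libraries. All 10 astrocyte markers were above 0 in every library, and their sum ranged over 416 to 1210 TPM in P7 layer 2, 207 to 821 TPM in P7 layer 3, 631 to 740 TPM in P3 layer 2 and 153 to 393 TPM in P3 layer 3. All 8 oligodendrocyte precursor markers were above 0 as well, with sums of 107 to 247 TPM in P7 layer 2, 69.6 to 323 TPM in P7 layer 3, 387 to 417 TPM in P3 layer 2 and 57.1 to 197 TPM in P3 layer 3. The 8 radial glia markers summed to 1030 to 2750 TPM in P7 layer 2, 410 to 1430 TPM in P7 layer 3, 4070 to 6830 TPM in P3 layer 2 and 733 to 1820 TPM in P3 layer 3. Of these, Fabp7 alone averaged 1480, 718, 4805 and 1066 TPM in the same order of groups. The 11 interneuron markers summed to 61.6 to 229 TPM at P7 and 42.2 to 172 TPM at P3, with Pvalb, which marks the interneurons best known for nets, at 0.330 to 1.29 TPM in P7 layer 2, at 0.865 to 1.10 TPM in P3 layer 2 and at 0 in all layer 3 libraries. In all, 3 libraries stood apart, 1 each in P3 layer 2 (replicate 2, highest microglia sum, 2500 TPM), P3 layer 3 (replicate 1, highest choroid plexus sum, 244 TPM) and P7 layer 3 (replicate 1, highest oligodendrocyte sum, 971 TPM). In pooled RNA, fewer cells of a type and less RNA per cell cannot be told apart.

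Among the lecticans, aggrecan, the core proteoglycan of mature nets, was at the edge of detection. Acan had 0.183, 0 and 0 TPM in P7 layer 2 and 0.542, 0.204 and 0 TPM in P7 layer 3, and it was listed at 0 in all 6 P3 libraries. An exact 0 in a TPM table may be a failed estimate, and no fold change is given. The defining proteoglycan of mature perineuronal nets was thus at or near 0, and the members are called by their symbols.

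Neurocan and brevican, the abundant lecticans of the young brain, were the highest lecticans in every library. Ncan had 90.6, 167 and 107 TPM in P7 layer 2, 133, 93.5 and 82.8 TPM in P7 layer 3, 132, 119 and 137 TPM in P3 layer 2 and 63.7, 109 and 69.8 TPM in P3 layer 3. P3 layer 3 was the lowest group, without overlap with P3 layer 2, while the P7 groups overlapped each other and both P3 groups. Bcan, a brain-specific lectican made by glia and neurons, had 66.3, 224 and 100 TPM in P7 layer 2, 199, 67.2 and 31.4 TPM in P7 layer 3, 146, 158 and 124 TPM in P3 layer 2 and 19.8, 87.9 and 28.5 TPM in P3 layer 3. The P7 libraries spread from 31.4 to 224 TPM, and of the layers and ages compared only the layers at P3 lay apart.

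Neither gene was called in any comparison. At P3 the log2 fold change of layer 2 over layer 3 was 1.92 ± 0.62 for Bcan (95% interval 0.59 to 3.24, adjusted p = 0.0697) and 0.70 ± 0.24 for Ncan (0.18 to 1.23, adjusted p = 0.0884). Without P3 layer 3 replicate 2, the library of that group with the most Bcan, the value of Bcan was 2.53 (adjusted p = 0.0206) and that of Ncan 0.94 (adjusted p = 0.0248), both called. Bcan was also called in a fit of the compared groups alone (adjusted p = 0.0437). Of the 14 other settings tried at P3, 12 left Bcan uncalled (values down to 1.41, adjusted p up to 0.252). For Ncan 13 of 14 gave no call (down to 0.55, adjusted p up to 0.27). Between the ages Bcan differed by -0.31 ± 0.62 in layer 2 (-1.64 to 1.01) and 1.01 ± 0.62 in layer 3 (-0.32 to 2.33). For Ncan the P7 over P3 values were -0.13 ± 0.24 in layer 2 (-0.65 to 0.39) and 0.36 ± 0.24 in layer 3 (-0.17 to 0.88).

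Bcan followed the astrocyte markers from library to library. In each of the 4 groups except P3 layer 3 the libraries ranked alike by Bcan and by the astrocyte sum, and in P3 layer 3 replicate 2 was highest in both. This ranking was not particular to astrocyte markers. By the radial glia sum the libraries ranked like Bcan in all 4 groups, with 733, 1820 and 969 TPM in P3 layer 3. By the oligodendrocyte and microglia sums they did so in every group but P3 layer 2. Percentages were taken of the astrocyte sum only. Bcan itself varied 11.3-fold between the lowest and the highest library, while its level as a percentage of the astrocyte sum varied 2.11-fold, between 11.5% and 24.2%. Ncan went the other way, with 2.62-fold in TPM and 3.29-fold as a percentage of the astrocyte sum, between 13.9% and 45.6%. The gene with the pattern most like Bcan across the 12 libraries was Slc7a10, an amino acid transporter of astrocytes (Pearson r = 0.993 of log2(TPM + 1)), followed by the astrocyte marker Fgfr3 (0.988). For Ncan these were Ndrg2 (0.974), known as an astrocyte protein, and the acyl-CoA synthetase gene Acsbg1 (0.969). The points of these correlations share age, layer and the content of other cells, so they describe the libraries only. The part of other cell types in the Bcan and Ncan levels was not tested.

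Versican, the large lectican of immature matrix, was the lowest of the 3 lecticans that were detected throughout. Vcan had 9.48, 11.6 and 8.41 TPM in P7 layer 2 and 4.25, 6.60 and 3.43 TPM in P7 layer 3, and all layer 2 libraries were above all layer 3 libraries at that age. At P3 it had 10.4, 7.50 and 15.9 TPM in layer 2 and 4.68, 9.22 and 4.53 TPM in layer 3, with overlap through layer 3 replicate 2. Averaged over the ages, Vcan was higher in layer 2, by 0.86 ± 0.23 on the log2 scale (adjusted p = 0.0345). That call ended without any 1 of 9 libraries (adjusted p = 0.0541 to 0.0918), and held without replicate 2 of P7 layer 3, of P3 layer 2 or of P3 layer 3. It also ended without a filter on low values (0.0663) and without the 3 libraries that stood apart (0.0706). At single ages Vcan was not called (0.94 ± 0.32, adjusted p = 0.308 at P7 and 0.78 ± 0.32, adjusted p = 0.15 at P3). Leaving out P3 layer 3 replicate 2 gave a call at P3 (1.07, adjusted p = 0.0491), while 13 of the 14 other settings gave none. Between the ages Vcan was not called in layer 2 (-0.13 ± 0.32) or layer 3 (-0.29 ± 0.32).

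The link proteins were below Bcan and Ncan in every library, while Hapln1 exceeded Acan in every library and Vcan in P7 layer 3 replicate 1. Hapln1, the link protein first known from cartilage, had 1.55, 10.3 and 3.43 TPM in P7 layer 2, 7.05, 2.63 and 2.14 TPM in P7 layer 3, 1.59, 1.28 and 1.52 TPM in P3 layer 2 and 0.236, 0.870 and 0.242 TPM in P3 layer 3. In layer 3 every P7 library exceeded every P3 library, and in layer 2 P7 replicate 1 lay within the P3 range. In layer 3 Hapln1 was higher at P7, by 1.67 ± 0.48 on the log2 scale (adjusted p = 0.0248), and in layer 2 it was not called (1.03 ± 0.48, 95% interval 0.01 to 2.06, adjusted p = 0.134). The difference between these age changes was -0.63 ± 0.67 (adjusted p = 0.748), so the layers were not shown to differ.

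The layer 3 call of Hapln1 ended without P7 layer 3 replicate 1 (1.25, adjusted p = 0.106) or replicate 1 or 3 of P3 layer 3 (1.57 each, 0.0839 and 0.0785), and without the 3 libraries that stood apart (1.15, 0.232). It ended too with a pseudocount of 5 (0.68, adjusted p = 0.0777) and with no filter on low values (1.67, 0.0545). In layer 2 a call appeared without P7 layer 2 replicate 1 (1.52, adjusted p = 0.0392), while 12 of the 13 other settings gave none. The libraries with the most Hapln1, P7 layer 2 replicate 2 and P7 layer 3 replicate 1, also had the highest astrocyte sums of their groups (1210 and 821 TPM) and the highest oligodendrocyte sums (478 and 971 TPM), and the part of those cells was not tested. The patterns most like Hapln1 were those of Paqr7 (Pearson r = 0.969), a membrane progesterone receptor gene, and the acyl-CoA synthetase gene Acsl6 (0.957).

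Hapln4, the brain link protein found in nets together with brevican, stayed under 1 TPM in every library. It had 0.718, 0.833 and 0.313 TPM in P7 layer 2, 0.735, 0.408 and 0.239 TPM in P7 layer 3, 0.397, 0.511 and 0.454 TPM in P3 layer 2 and 0.400, 0.319 and 0.189 TPM in P3 layer 3. All 4 groups overlapped, and the gene was too low to be tested. Each of the 4 lectican genes lies next to a link protein gene in the RefSeq annotation of GRCm38.p6, with 0 genes between the partners: Vcan beside Hapln1, Bcan beside Hapln2, Acan beside Hapln3 and Ncan beside Hapln4. Hapln2, a link protein of myelinated fibres, reached at most 0.564 TPM beside Bcan, Hapln3 had 1.28 to 5.44 TPM beside Acan, and Hapln4 was under 1 TPM beside Ncan. The ranges of Vcan (3.43 to 15.9 TPM) and its neighbour Hapln1 (0.236 to 10.3 TPM) overlapped.

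Of the tenascins, Tnc exceeded Tnr in every library. Tenascin-C, a multimeric glycoprotein of progenitor zones and young astrocytes, had 16.1, 36.3 and 18.5 TPM in P7 layer 2, 23.3, 16.0 and 15.5 TPM in P7 layer 3, 31.8, 30.0 and 30.2 TPM in P3 layer 2 and 8.71, 19.4 and 5.31 TPM in P3 layer 3. The P3 layer 2 libraries lay close together and above all P3 layer 3 libraries, while the P7 groups overlapped. Tnc was higher in layer 2 at P3 (log2 fold change 1.56 ± 0.37, adjusted p = 0.0201) and as the mean over the ages (0.92 ± 0.26, adjusted p = 0.0469), and was not called at P7 (0.29 ± 0.37, adjusted p = 0.852). The layer difference at P7 less that at P3 was -1.27 ± 0.52 (adjusted p = 0.379), so a change of it with age was not called.

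The P3 call of Tnc ended with the loss of any P3 library other than layer 3 replicate 2 (adjusted p up to 0.0756) and of the 3 libraries that stood apart (0.14), and the call of the mean over the ages ended in 12 of 19 other settings (up to 0.122). Without P3 layer 3 replicate 2, Tnc was also called higher at P7 in layer 3 (1.28, adjusted p = 0.00906). The value in all libraries was 0.82 ± 0.37 (adjusted p = 0.136), and 13 of the 14 other settings gave no call. Radial glia markers differed the same way at P3, with 8 of 8 called higher in layer 2, against 4.87% of all tested genes. So did 5 of 10 astrocyte markers, with sums over the 10 of 631 to 740 TPM in layer 2 and 153 to 393 TPM in layer 3. None of the 10 was called lower, but Gjb6 lay the other way with ranges apart (1.88 ± 1.72 against 13.4 ± 12.1 TPM, log2 fold change -2.15 ± 0.65, adjusted p = 0.0554). Of 8 oligodendrocyte precursor markers 4 were also called higher in layer 2 at P3, as were 4 of 10 tested interneuron markers, with none lower. The part of all these cells in Tnc was not tested. As a percentage of the astrocyte sum Tnc lay between 2.84% and 7.50% in the 12 libraries. A pattern close to that of Tnc was that of Ccdc80 (Pearson r = 0.970).

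Tenascin-R, which crosslinks lecticans and is made mainly by oligodendrocyte lineage cells and some neurons, had 3.55, 6.35 and 1.88 TPM in P7 layer 2, 5.20, 2.93 and 2.21 TPM in P7 layer 3, 5.0, 3.47 and 5.23 TPM in P3 layer 2 and 2.21, 3.97 and 2.08 TPM in P3 layer 3. All groups overlapped, and Tnr was not called in any comparison. Its log2 fold changes were -0.27 ± 0.36 for P7 over P3 in layer 2, 0.22 ± 0.36 in layer 3, 0.10 ± 0.36 for layer 2 over layer 3 at P7 and 0.59 ± 0.36 at P3. The patterns most like it, those of Tmem123 (Pearson r = 0.895) and Aldh18a1 (0.892), were less close than those found for other members.

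**Figure D2:**
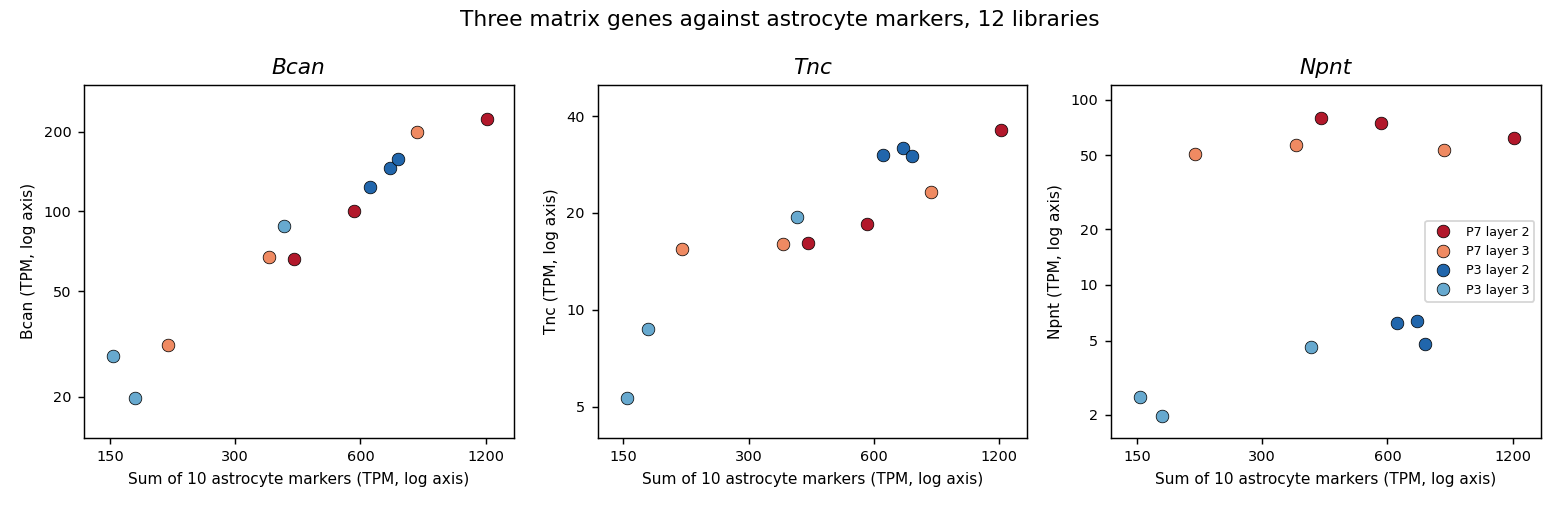
Bcan, Tnc and Npnt (y axes, TPM, log scale) against the summed TPM of 10 astrocyte markers (x axes, log scale), 1 point per library, coloured by group. Bcan rises with the astrocyte sum over all groups, whereas Npnt divides by age at 51.0 to 79.5 TPM (P7) and 1.96 to 6.41 TPM (P3) over overlapping astrocyte sums.

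Nephronectin was the member with the clearest change. Npnt had 79.5, 61.7 and 74.9 TPM in P7 layer 2, against 6.41, 4.81 and 6.27 TPM in P3 layer 2. In layer 3 it had 53.2, 56.8 and 51.0 TPM at P7, against 1.96, 4.64 and 2.48 TPM at P3. In each layer all P7 libraries lay far above all P3 libraries. Group means were 72.1 ± 9.23 TPM in P7 layer 2, 53.6 ± 2.92 TPM in P7 layer 3, 5.83 ± 0.883 TPM in P3 layer 2 and 3.03 ± 1.42 TPM in P3 layer 3.

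The rise with age was 3.42 ± 0.23 on the log2 scale in layer 2 (adjusted p = 5.4e-07), a fold of 10.7, and 3.82 ± 0.23 in layer 3 (adjusted p = 7.17e-07), a fold of 14.1. By absolute log2 fold change Npnt ranked 26 in layer 2 and 8 in layer 3 among 17606 genes. Both calls held in all 14 other settings tried for each layer, with log2 fold changes of 2.83 to 3.61 in layer 2 and 2.88 to 4.19 in layer 3. The rise in layer 2 less the rise in layer 3 was -0.40 ± 0.32 (95% interval -1.09 to 0.29, adjusted p = 0.66).

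Marker sums of other cells were set beside the rise of Npnt. Within P7 layer 2, replicate 2 had the highest astrocyte sum (1210 TPM) and the least Npnt of the group, and over the P7 libraries astrocyte sums of 207 to 1210 TPM stood beside Npnt levels of 51.0 to 79.5 TPM. Interneuron sums overlapped between P7 (61.6 to 229 TPM) and P3 (42.2 to 172 TPM). Oligodendrocyte sums lay apart in layer 2, with values of 166 to 478 TPM at P7 and 83.3 to 133 TPM at P3, and overlapped in layer 3, with 56.6 to 971 TPM at P7 and 45.1 to 109 TPM at P3. Radial glia sums lay apart the other way in layer 2 (1030 to 2750 TPM, against 4070 to 6830 TPM at P3). Fabp7 averaged 1480 TPM in P7 layer 2 and 4805 TPM in P3 layer 2, and so made up most of these sums. Of the 8 markers, Fabp7, Vim and Nes were called lower at P7 and Hopx higher, and 4 were not called. Of all tested genes 9.33% were lower and 15.0% higher. The P7 layer 3 library with the least oligodendrocyte and astrocyte signal (56.6 and 207 TPM) had the least Npnt of the P7 libraries (51.0 TPM). The part of these cell types in Npnt was not tested. Without the 3 libraries that stood apart the rise of Npnt was 3.31 in layer 2 and 3.63 in layer 3.

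Between the layers the Npnt values of layer 2 lay above those of layer 3 at both ages, with ranges apart at each. The log2 fold change of layer 2 over layer 3 was 0.41 ± 0.23 at P7 (not called, adjusted p = 0.604), 0.81 ± 0.23 at P3 (adjusted p = 0.0409) and 0.61 ± 0.16 as the mean over the ages (adjusted p = 0.0338). The P3 call ended in 10 of 14 other settings (adjusted p up to 0.174), among them the replicate block (0.063) and the loss of any P3 library other than layer 3 replicate 2 (0.0639 to 0.121). The call of the mean over the ages ended in 12 of 19 (up to 0.0828), again with the replicate block among them (0.0544).

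The patterns most like Npnt over the 12 libraries were those of Rgs4, a regulator of G-protein signalling (Pearson r = 0.989), and B3gat1, which encodes a glucuronyltransferase that makes the HNK-1 carbohydrate (0.986). The points of these correlations share the difference between P7 and P3. Of the integrin chains that can form nephronectin receptors, Itga8 stayed at or under 1.57 TPM in every library, whereas Itgb1, its partner chain, ranged over 37.0 to 58.9 TPM in P7 layer 2, 42.4 to 61.9 TPM in P7 layer 3, 55.4 to 60.8 TPM in P3 layer 2 and 31.8 to 61.4 TPM in P3 layer 3.

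Upstream promoter windows of Npnt, the member with the largest age change, and of Bcan, which varied with the astrocyte markers, are shown for comparison. RefSeq lists 2 start sites for Npnt and 1 for Bcan, and the windows shown are the 250 bases before the first listed site on the minus strand of GRCm38.p6, at chr3:132950292-132950541 for Npnt and chr3:88000357-88000606 for Bcan, written 5′ to 3′. Capitals mark matches on either strand to the GC box GGGCGG or to ACAANG, a core of Sox factor sites.
Npnt: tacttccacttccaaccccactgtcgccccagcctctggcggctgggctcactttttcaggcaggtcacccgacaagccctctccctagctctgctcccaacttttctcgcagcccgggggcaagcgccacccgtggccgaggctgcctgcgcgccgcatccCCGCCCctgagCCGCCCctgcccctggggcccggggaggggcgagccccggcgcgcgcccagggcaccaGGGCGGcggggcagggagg
Bcan: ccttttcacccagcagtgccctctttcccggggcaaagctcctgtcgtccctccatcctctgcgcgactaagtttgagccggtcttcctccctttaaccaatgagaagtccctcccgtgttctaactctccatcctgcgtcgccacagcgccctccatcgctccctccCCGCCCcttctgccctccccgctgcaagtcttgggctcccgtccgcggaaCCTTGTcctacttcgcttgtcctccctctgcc
The Npnt window shown held 3 GC boxes and a GC content of 74.0%, and the Bcan window 1 GC box, 1 ACAANG match and a GC content of 62.0%. Neither of these windows held TATAAA or the E-box CAGNTG. The window of the other Npnt start site, at chr3:132949815-132950064, held no GC box, no TATAAA, no ACAANG and 2 CAGNTG matches, with a GC content of 69.6%. Among 32851 promoter windows of this length, 32.7% held a GC box, 36.3% ACAANG, 12.4% TATAAA and 44.8% CAGNTG. Matches are letters in a window and were not tested as binding sites, and the processing notes of the files name another build (GRCm39).

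Between the ages 1 of 7 tested members was called in layer 2, Npnt, against 24.3% of all tested genes (15.0% higher and 9.33% lower), and 2 of 7 in layer 3, Npnt and Hapln1, against 20.8% (14.4% higher and 6.42% lower). All of these were higher at P7. The ranges of P7 lay above those of P3 for 1 member in layer 2, against 26.3% of all tested genes, and for 2 in layer 3, against 23.2%. With 7 members tested, these counts are not read as different from the background. At P3, 2 of 7 members were called between the layers, Tnc and Npnt, against 9.05% of all tested genes. Both were higher in layer 2, against 4.87% called higher, and the ranges of 5 lay apart upwards, against 16.0%. The count of 2 was 0 after the loss of any 1 P3 library other than layer 3 replicate 2, or of the 3 that stood apart, and 5 after the loss of layer 3 replicate 2. At P7 no member was called with limma (0.500% of all genes were), and 1, Vcan, had an unadjusted p under 0.05 (0.0113, rank 646 by p among 17606 genes). The ranges of 2, Vcan and Npnt, lay apart upwards at P7, against 8.14%. Averaged over the ages, Tnc, Vcan and Npnt were higher, against 7.93% of all genes called and 4.03% called higher. That count of 3 was 0 without the 3 libraries that stood apart and also without P7 layer 2 replicate 3, P7 layer 3 replicate 3, or any P3 library but replicate 2 of either layer. It was 1 without P7 layer 2 replicate 1 or 2 or P7 layer 3 replicate 2, and 5 when P3 layer 3 replicate 2 was left out. For the difference of age changes no member was called with limma (0.182% of all genes were). Tnc alone had an unadjusted p under 0.05 there (0.0305, rank 1418 by p among 17606 genes).

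**Figure D3:**
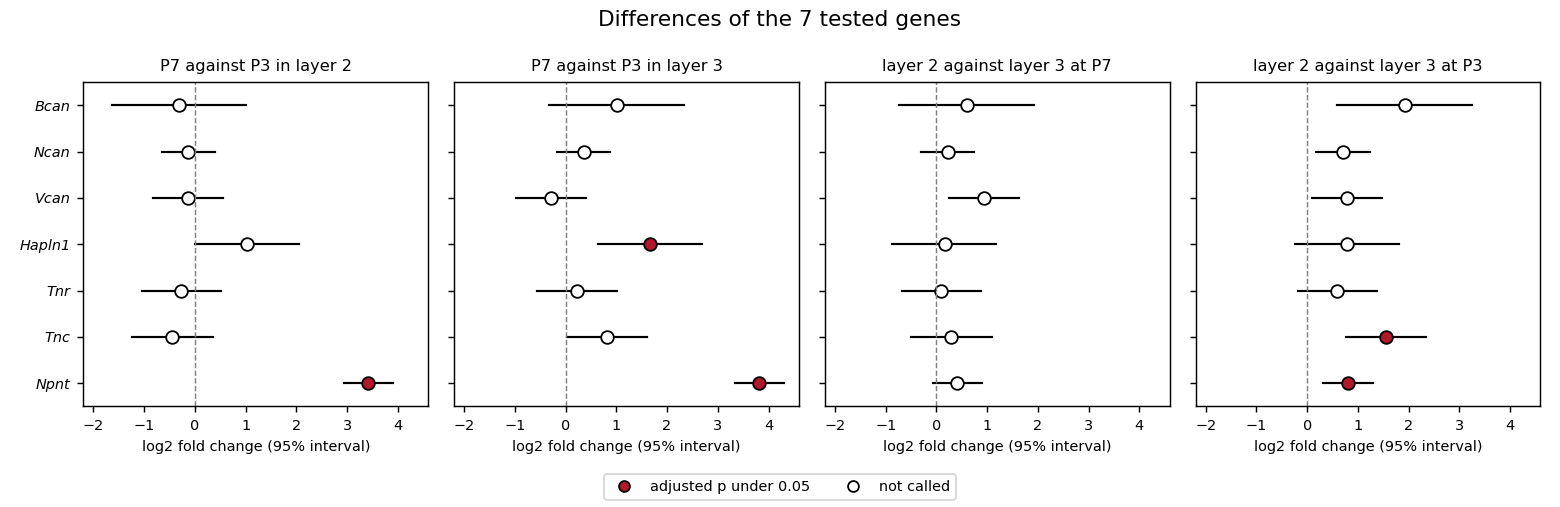
Log2 fold changes (x axes, log2(TPM + 1) scale) of the 7 tested members in 4 comparisons, with 95% intervals as lines. Filled points have an adjusted p under 0.05. Npnt stands at 3.42 and 3.82 for the ages. The layer comparisons at P3 and at P7 both have all 7 estimates above 0, and none is filled at P7.

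The median log2 fold change of the 7 tested members was -0.13 for P7 over P3 in layer 2 (0.03 over all tested genes), 0.82 in layer 3 (0.17), 0.29 for layer 2 over layer 3 at P7 (-0.04) and 0.79 at P3 (0.06). The shift of all genes in layer 3 was 0.00 with median-ratio scaling of the columns, and the share of called genes that were higher at P7 was then 49.9%, against 69.2% with TPM as deposited. In make-up the set changed with age. Npnt made up 11.9% to 29.7% of the summed TPM of the 9 genes at P7 and 1.48% to 2.19% at P3, while Bcan and Ncan were the highest or second highest member in every P3 library.

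Other genes of the matrix pathway were counted by role. Of 21 genes that build chondroitin sulfate chains, 20 were tested. In layer 2, 8 were higher at P7 and none was lower (15.0% and 9.33% of all tested genes), with a median log2 fold change of 0.49 (0.03 over all tested genes). Csgalnact1, which starts the chondroitin chain, had 15.0 ± 3.53 TPM at P7 and 3.57 ± 1.49 TPM at P3 in layer 2, higher by 1.85 ± 0.29 on the log2 scale (adjusted p = 0.000554). The chain polymerase gene Chsy3 (1.51 ± 0.34, adjusted p = 0.00552) and the uronyl 2-sulfotransferase gene Ust (1.34 ± 0.26, adjusted p = 0.00244) were higher as well. In layer 3, 5 were higher and none was lower (14.4% and 6.42% of all tested genes; median 0.39, against 0.17 over all), with Ust (1.10 ± 0.26, adjusted p = 0.01) and the xylose kinase gene Fam20b (1.08 ± 0.18, adjusted p = 0.00107) as examples that held whichever library was left out. Csgalnact1 was lower in layer 2 than in layer 3 at P3 (3.57 ± 1.49 against 11.0 ± 3.45 TPM, log2 fold change -1.42 ± 0.29, adjusted p = 0.00987).

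Of 12 tested receptors of matrix molecules, 5 were higher at P7 in layer 2 (median log2 fold change 0.33, against 0.03 over all tested genes) and 4 in layer 3 (0.44, against 0.17), and none was lower. Of all tested genes 15.0% were higher and 9.33% lower in layer 2, and 14.4% and 6.42% in layer 3. Cntn1, a neuronal surface protein that binds tenascin-R, averaged 172 ± 17.3 TPM in P7 layer 2 and 54.9 ± 18.7 TPM in P3 layer 2 (log2 fold change 1.69 ± 0.25, adjusted p = 0.000354). In layer 3 it averaged 218 ± 28.7 TPM at P7 and 63.6 ± 22.2 TPM at P3 (1.81 ± 0.25, adjusted p = 0.000331). The Nogo receptor family gene Rtn4rl1 was higher at P7 in layer 2 (1.10 ± 0.17, adjusted p = 0.000499), and lower in layer 2 than in layer 3 at P3 (-0.90 ± 0.17, adjusted p = 0.00665), as was Rtn4r (-1.07 ± 0.21, adjusted p = 0.0075). Without the 3 libraries that stood apart the P3 calls of Rtn4rl1 (0.0551) and Rtn4r (0.058) ended. The P3 call of Rtn4r also ended in a fit of the compared groups alone (adjusted p = 0.053). At P3 the projection neuron markers Cux1, Cux2, Slc17a7 and Neurod2 were lower in layer 2 as well, and the part of neuronal content was not tested.

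Among 18 tested proteoglycans other than lecticans, 6 were higher and 1 lower at P7 in layer 2 (15.0% and 9.33% of all tested genes; median 0.45, against 0.03 over all), and 7 were higher and 3 lower in layer 3 (14.4% and 6.42%; median 0.50, against 0.17). Spock1, a testican of neurons, averaged 52.5 ± 6.71 TPM in P7 layer 2 and 13.2 ± 0.760 TPM in P3 layer 2 (log2 fold change 1.91 ± 0.40, adjusted p = 0.00372), and it was higher at P7 in layer 3 (2.15 ± 0.40, adjusted p = 0.00234). Spock3 was higher at P7 in layer 3 (3.27 ± 0.44, adjusted p = 0.000245), and the glypican gene Gpc5 in layer 2 (2.07 ± 0.36, adjusted p = 0.00104). The glypican gene Gpc2, known from growing axons, was lower at P7 in layer 2 (-1.16 ± 0.28, adjusted p = 0.0076) and layer 3 (-1.83 ± 0.28, adjusted p = 0.000546). Dcn, the small proteoglycan decorin of connective tissue, was lower at P7 in layer 3 (6.63 to 7.96 TPM, against 16.5 to 90.2 TPM at P3, log2 fold change -1.98 ± 0.51, adjusted p = 0.0141), and so was Sdc1, a syndecan (-0.70 ± 0.18, adjusted p = 0.0148). Of 5 tested meningeal fibroblast markers 4 were lower at P7 in layer 3 as well, with sums over 7 listed markers of 7.25 to 10.7 TPM at P7 and 20.2 to 170 TPM at P3, and the part of those cells was not tested. The Sdc1 call ended without P3 layer 3 replicate 1 (0.0571) and without the 3 libraries that stood apart (0.103). Ptprz1, whose secreted form phosphacan binds tenascins, averaged 132 ± 11.3 TPM in P3 layer 2 and 30.7 ± 24.6 TPM in P3 layer 3 (2.37 ± 0.57, adjusted p = 0.0214), a call that ended without any 1 P3 library other than layer 3 replicate 2 (0.0509 to 0.0815).

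Of 16 tested proteases and inhibitors, 3 were higher at P7 in layer 2 and 2 in layer 3, and none was lower, counts near the 15.0% and 14.4% of all tested genes called higher. The metalloproteinase inhibitor Timp2 was higher in layer 2 (269.8 ± 4.99 TPM at P7 and 156 ± 4.59 TPM at P3, log2 fold change 0.79 ± 0.16, adjusted p = 0.00319) and in layer 3 (0.77 ± 0.16, adjusted p = 0.00474). Adamts8, of the protease family that cuts lecticans, was higher in layer 3 (1.54 ± 0.34, adjusted p = 0.00627). Of 7 tested genes of hyaluronan and other link proteins, 1 was higher and 1 lower at P7 in layer 2, and 1 was higher in layer 3. These counts were near the shares of all tested genes (15.0% higher and 9.33% lower in layer 2, 14.4% higher in layer 3). The hyaluronan synthase Has3 was higher at P7 in layer 2 (1.18 ± 0.34, adjusted p = 0.0207) and Has2 lower (-1.16 ± 0.39, adjusted p = 0.0433). The hyaluronan receptor gene Cd44 was higher in layer 3 (1.27 ± 0.42, adjusted p = 0.0464). The Has3 call ended without P7 layer 2 replicate 1 or 3 or replicate 2 of P3 layer 2 (0.0524 to 0.102), and those of Has2 and Cd44 ended in most other settings. At P7 no gene of these 5 lists was called between the layers with limma, where 0.500% of all tested genes were. In the same model 7 of 73 had an unadjusted p under 0.05. The share of all tested genes at that cut is not given, so this count is not read as different from the background.

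**Figure D4:**
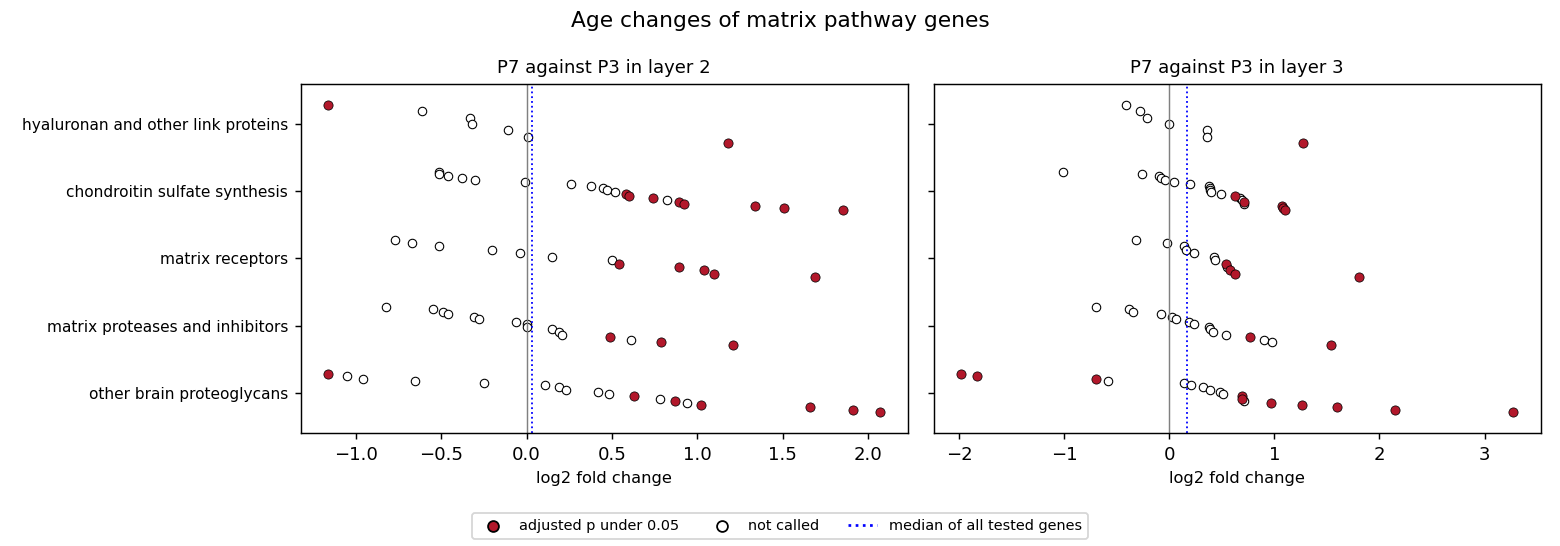
Log2 fold changes of P7 over P3 (x axes, log2(TPM + 1) scale) for the tested genes of 5 matrix pathway lists (rows), in layer 2 (left) and layer 3 (right). Each point is a gene, filled where the adjusted p was under 0.05, the grey line is 0 and the dotted line the median of all tested genes (0.03 and 0.17). In the list of chondroitin sulfate synthesis, 8 genes in layer 2 and 5 in layer 3 are filled, all to the right of 0.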

How the data were processed

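Per the submitters' processing notes, HISAT2, StringTie and featureCounts were used with build GRCm39; versions, strand setting and treatment of shared reads are not given in the sources used here. The deposited table holds TPM that the authors computed, in 12 columns that each sum to 1000000, so overlapping or related genes are uncertain and depth is unknown. Columns were matched to samples by title. Genes above 0 numbered 30388, and 17606 of them had 1 TPM or more in 3 or more libraries. These were fitted as log2(TPM + 1) with limma-trend (version 3.58.1 in R 4.3.3), using a group-means design that left 8 residual degrees of freedom, and p-values were adjusted by Benjamini-Hochberg over all of them. The 6 comparisons were P7 over P3 in each layer, the difference of those age changes, and layer 2 over layer 3 at each age and averaged over ages. Members, lists and tests were chosen with earlier results of these data known. All 9 members are named, with up to 3 called genes per direction of each of 5 pathway lists, and the 2 genes most like each member by Pearson r among genes of at least 5 TPM on average and with an ordinary symbol, and some items are not reported here. Hapln2, Hapln3, Itga8 and Itgb1 are given by level. Alternatives changed the pseudocount (0.1 or 5), the filter (none or 5 TPM), the scaling (median-ratio), the groups in the fit or the block (replicate number), or left out each library, plus the loss of 3 libraries chosen after seeing the data.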

Additional observations from a re-analysis of the deposited data

How the results depend on the processing

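Of 652 member values recomputed under other settings, 568 kept direction and side of the threshold, 57 lost their call, 9 gained one and 18 turned direction. The count of members called at P3 between the layers (2) was 1 with a pseudocount of 5, 1 without a filter, 1 with the replicate block, 0 without the 3 libraries that stood apart, and 0 to 5 with single libraries left out. The mean over the ages (3) gave 0 without a filter, 0 without those 3 libraries, and 0 to 5 with single libraries left out. For P7 over P3 in layer 3 the count (2) was 1 with a pseudocount of 5, 1 without a filter, 1 with the filter at 5 TPM, which removes Hapln1, 1 without the 3 libraries, and 1 to 3 with single libraries left out, and in layer 2 (1) it was 1 to 2. The cause of these moves was otherwise not tested.

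Directions turned only where no call stood. For layer 2 over layer 3 at P7, leaving out single libraries gave -0.02 to 1.29 for Bcan, -0.42 to 0.65 for Hapln1, -0.04 to 0.41 for Ncan, -0.05 to 0.51 for Tnc and -0.24 to 0.43 for Tnr. For P7 over P3 in layer 2 it gave -0.79 to 0.07 for Bcan, -0.38 to 0.05 for Ncan, -0.61 to 0.07 for Tnr and -0.37 to 0.13 for Vcan. In layer 3 it gave -0.04 to 0.44 for Tnr and -0.50 to 0.00 for Vcan, and without the 3 libraries -0.12 for Bcan and -0.14 for Tnr. The difference of age changes of Vcan was -0.13 to 0.42.

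The number of all genes called at P3 between the layers (1593) was 935 in a fit of these groups alone, 591 without the 3 libraries and 657 to 1974 with single libraries left out. At P7 (88) it was 47 and 147 with pseudocounts of 0.1 and 5, and 14 to 44. The mean over the ages (1396) gave 802 to 1604, the age change in layer 2 (4280) 2793 to 3801, and that in layer 3 (3670) 2117 in a fit of these groups alone, 2045 without the 3 libraries and 2275 to 5225. The difference of age changes (32) gave 14 with a pseudocount of 0.1, 16 without a filter, 12 without the 3 libraries and 8 to 102.

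Replicate numbers were not shown to pair the samples: deviations of same-numbered libraries correlated at -0.19 to 0.21, with 5 of 18 pairs over 0.1. For libraries of different groups and numbers the range was -0.27 to 0.28, with 5 of 36 pairs over 0.1. With the replicate block, 1 member was called at P3 between the layers, and the number of all genes called stayed within 1.5 times that of every comparison (1524 at P3, 68 at P7). Depth is unknown, which limits Acan and Hapln4.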
